A study of Mus musculus with 4 samples.

Results

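The genes described here encode the enzymes that make cholesterol and fatty acids and the proteins that switch those enzymes on. They were chosen by symbol, as a list of 31 mouse genes: 18 enzymes of the sterol pathway in the order of their reactions, 5 regulators of the SREBP system and 8 genes of fatty acid synthesis and desaturation. Of these, 30 matched a row among the 28987 genes of the table, and Hmgcs1, which encodes HMG-CoA synthase, was not analysed here. The 30 were therefore 17 sterol enzymes, 5 regulators and 8 fatty acid genes, and all 30 reached the level needed for testing, 1 TPM (a relative transcript abundance corrected for transcript length) in at least 2 libraries.

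The cells were c-Kit-positive bone marrow cells of C57BL/6 mice, enriched on CD117 beads and labelled as haematopoietic stem and progenitor cells. All 4 libraries carried an Mll partial tandem duplication over a wild-type allele and a floxed Runx1 on both alleles with Mx1-Cre, a recombinase driven by an interferon-inducible promoter. The 2 Hif1a-intact libraries had that genotype alone, and in the 2 Hif1a-null libraries both alleles of Hif1a were floxed as well. Every library thus shared the Mll duplication and the Runx1 deletion, and no library without them was part of the comparison. The comparison asks how transcripts differ with and without Hif1a, the oxygen-regulated subunit of HIF-1, in that background. The labels give no ages and do not tie libraries to mice, so the p-values reflect the spread among 4 libraries that may be technical repeats. Directions rest on the labels, and a replicate number is only a name.

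Cells build cholesterol from acetyl-CoA through mevalonate, farnesyl diphosphate and squalene to lanosterol, and then trim lanosterol to cholesterol. When sterols run low in the endoplasmic reticulum, SCAP carries the SREBP transcription factors to the Golgi, where they are cut and released to the nucleus, and when sterols are plentiful the INSIG proteins hold them back. SREBP-2 acts mainly on sterol genes and SREBP-1 mainly on fatty acid genes, and Insig1 and the SREBP genes are themselves SREBP targets, so the system feeds back on itself. Progenitors in the marrow use both products for membranes.

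Promoter sequences of 3 genes are shown because their transcripts were lower in both Hif1a-null libraries without overlap. They were also chosen because they stand for the parts of this loop. The genes are Insig1, the sterol-dependent brake, Srebf2, the main sterol regulator, and Cyp51, the demethylase that acts on lanosterol. The windows run from 250 bases before to 50 bases after the RefSeq start, 5′ to 3′ on the gene's strand, in build GRCm38.p6. They lie at chr5:28071162-28071461 (plus strand) for Insig1, chr15:82147019-82147318 (plus strand) for Srebf2 and chr5:4104648-4104947 (minus strand) for Cyp51. Capitals mark the NF-Y box CCAAT, the E-box CACGTG and the loose form of the sterol regulatory element TCACCNCA, searched on both strands. For Insig1 these are an E-box at -101 and an NF-Y box at -216 from the start, for Srebf2 a loose sterol element at -162 and an NF-Y box at -135, and for Cyp51 a loose sterol element at -88 and an NF-Y box at -29.
Insig1: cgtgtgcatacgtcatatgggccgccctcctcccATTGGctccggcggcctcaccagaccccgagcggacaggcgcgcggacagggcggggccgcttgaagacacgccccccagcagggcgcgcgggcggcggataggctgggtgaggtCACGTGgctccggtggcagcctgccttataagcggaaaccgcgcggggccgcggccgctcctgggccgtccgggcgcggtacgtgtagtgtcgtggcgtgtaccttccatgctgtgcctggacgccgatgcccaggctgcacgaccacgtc
Srebf2: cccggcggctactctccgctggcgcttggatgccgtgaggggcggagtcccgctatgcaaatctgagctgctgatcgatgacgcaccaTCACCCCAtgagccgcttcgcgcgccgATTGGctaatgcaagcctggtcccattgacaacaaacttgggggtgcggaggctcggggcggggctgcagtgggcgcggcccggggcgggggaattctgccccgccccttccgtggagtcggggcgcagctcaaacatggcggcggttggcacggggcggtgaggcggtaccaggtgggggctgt
Cyp51: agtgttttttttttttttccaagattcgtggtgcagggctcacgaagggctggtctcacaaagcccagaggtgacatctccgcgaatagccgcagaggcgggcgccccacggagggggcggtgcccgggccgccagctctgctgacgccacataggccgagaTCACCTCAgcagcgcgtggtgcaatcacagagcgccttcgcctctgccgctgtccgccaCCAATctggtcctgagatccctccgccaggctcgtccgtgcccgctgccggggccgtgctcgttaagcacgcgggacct

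Of the 31 listed genes, 24 had a RefSeq promoter window, 30 windows in all, since some genes have several starts. The NF-Y box was in 20 of the 30 windows (66.7%), against 37.4% of all 32851 windows of the same length. The Sp1 box GGGCGG was in 23 windows (76.7%), against 35.7% of all, and the E-box was in 6 (20%) from 5 genes, against 7.15%. Overlapping windows of Scap hold the same E-box, which was counted for each window. NF-Y and Sp1 are general factors known to work beside SREBP. The sterol regulatory element TCACNCCAC was found in 1 window, that of Hmgcs1, against 1.24% of all windows, and a longer form that contains it in 0 windows, against 0.0913%. The looser letters TCACCNCA, chosen after the windows had been read, were in 4 windows (13.3%), those of Hmgcs1, Cyp51, Hsd17b7 and Srebf2, against 4.42% of all. The hypoxia response element core ACGTG, which lies within any E-box, was in 8 windows (26.7%) from 7 genes, against 19.6%, and GACGTG in 2 (6.67%), against 6.38%. These matches describe letters only.

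No gene of the 30 passed the test, limma on log2(TPM + 1) with Benjamini-Hochberg adjustment over all 11909 genes tested at a threshold of 0.05. Across all genes 7.27% passed, 5.25% as higher without Hif1a and 2.02% as lower. At an unadjusted limma p under 0.05, 8 of the 30 were lower and 1 was higher, where 11.9% and 11.4% of all tested genes were. The 8 were Insig1, Fdps, Scd2, Cyp51, Srebf2, Scap, Fasn and Srebf1, and the higher gene was Scd1. Scd1 reached the level needed for testing in the Hif1a-null libraries alone, so the filter fixed its direction in these counts. In 13 of the 30 (43.3%) both Hif1a-null libraries lay below both Hif1a-intact libraries, where 32.3% of all tested genes did, and in 2 (Sqle and Scd1) they lay above, where 22.7% of all did. In either direction that is 15 of the 30, beside 55% of all genes tested, a share near that background. Log2 fold changes, given throughout as Hif1a-null minus Hif1a-intact, were below 0 in 26 of the 30, where 57.5% of all tested genes were. Their median was -0.22, beside -0.06 over all genes tested. With 1 library left out, 21 to 25 of the 30 had a log2 fold change below 0. The median over all genes tested ran from -0.10 to -0.01 in those fits. Over the whole table, 11 genes were called higher and 8 lower without Hif1a-null replicate 1, and 0 in either direction without Hif1a-null replicate 2.

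**Figure D1:**
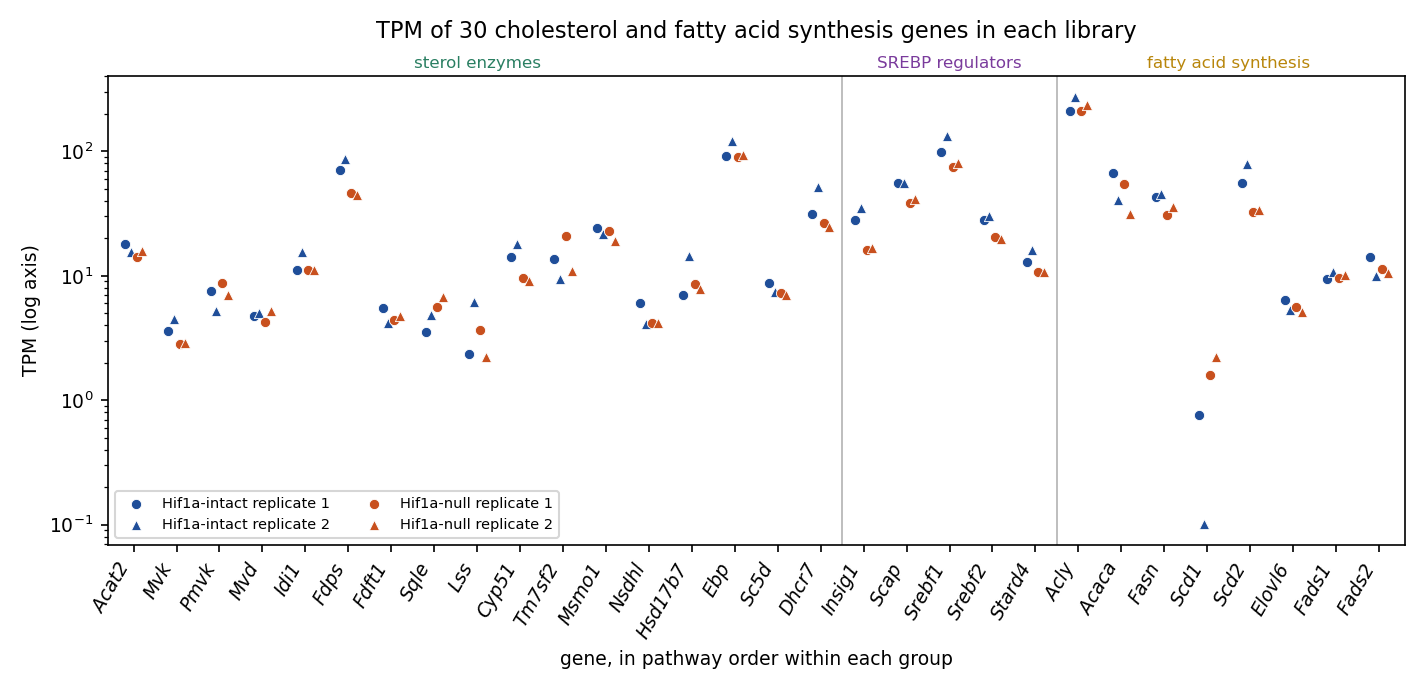
TPM (log axis) of the 30 genes in each of the 4 libraries, in pathway order within the sterol, regulator and fatty acid groups; blue marks are Hif1a-intact and orange marks Hif1a-null libraries, circles replicate 1 and triangles replicate 2. The orange marks of all 5 regulators sit below both blue marks, while most sterol enzymes overlap.

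The whole-series facts that bear on these values are as follows. Hif1a itself read 100 and 75.2 TPM in the Hif1a-intact and 98.8 and 113 TPM in the Hif1a-null libraries, which does not check the deletion, since exons outside the floxed part still count. Runx1, floxed in every library, read 73.6 and 76.6 against 48.4 and 46.7 TPM (limma, adjusted p = 0.0636), so a Runx1 difference and Hif1a status cannot be told apart here. Kit read 102 to 128 TPM over the 4 libraries and Cd34 179 to 251 TPM. Of 9 tested stem and progenitor markers, these among them, 2 were called higher and 0 lower (sum 682 to 730 against 549 to 556 TPM). Single markers of that list went both ways. Hlf read 4.27 and 2.80 TPM in Hif1a-intact and 15.1 and 13.8 TPM in Hif1a-null libraries, and Procr 10.4 and 7.33 against 3.52 and 2.94 TPM. Markers of other cells differed between the groups: the summed TPM of 10 erythroid markers was 107 to 170 in Hif1a-intact and 6584 to 7086 in Hif1a-null libraries (9 of 10 called higher), and 8 of 10 megakaryocyte markers (sum 36.2 to 38.6 against 170 to 188 TPM) and 6 of 12 neutrophil markers (28777 to 32649 against 40498 to 41647 TPM) were called higher. So were 8 of 9 tested B-lineage markers (17.96 to 21.6 against 231 to 235 TPM, with Igll1 and Rag1 listed at 0 wherever Hif1a was intact) and 6 of 8 tested T and NK markers (191 to 300 against 199 to 225 TPM, with Gzma likewise at 0). Nkg7, which made up most of the T and NK sum, went the other way, at 177 and 284 TPM in Hif1a-intact and 122 and 144 TPM in Hif1a-null libraries. Of 12 proliferation markers 0 were called (1748 to 1779 against 2105 to 2179 TPM). Of 12 macrophage, monocyte and dendritic markers, 4 were called higher and 2 lower, the latter Adgre1 and Cd68, and the list summed to 160 in both Hif1a-intact and 190 to 193 TPM in Hif1a-null libraries. Of 5 tested mast cell and basophil markers, 2 were called lower (sum 432 to 659 against 150 TPM in both, with Tpsb2 and Cma1 listed at 0 in every library). The part of these shifts in the values below was not tested, and fewer cells of a type cannot be told apart from less RNA per cell in such bulk samples.

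The 5 regulators lay lower in the Hif1a-null libraries, each without overlap between the groups and none past the adjusted threshold. Their log2 fold changes ran from -0.88 to -0.41 with a median of -0.52. All 5 stayed below 0 in each of the 16 alternative settings, but most of these could not have turned a sign. Where groups do not overlap, another pseudocount, filter or variance model or leaving out 1 library keeps the direction. Only the rescalings and the summing of copies could have changed it. Insig1 (ENSMUSG00000045294, GRCm38 chromosome 5, 28071363 to 28078662, plus strand), which retains the SCAP-SREBP complex when sterols are high, had the lowest adjusted p of all 30 genes. Its libraries read 27.9 and 34.8 TPM with Hif1a intact and 16.2 and 16.9 TPM without it. The Hif1a-null mean was 0.526 of the Hif1a-intact mean, with a log2 fold change of -0.88 ± 0.16 (SE, n = 2 each; limma, adjusted p = 0.0586). It was called with protein-coding genes only (limma, adjusted p = 0.0368) and without Hif1a-intact replicate 1 (0.0407), and its adjusted p ran from 0.0368 to 0.521 over the alternatives.

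Scap (ENSMUSG00000032485, chromosome 9, 110333288 to 110384950, plus strand) encodes the sterol-sensing escort of the SREBPs. It read 55.7 TPM in each Hif1a-intact library and 38.1 and 41.1 TPM in the Hif1a-null libraries. The log2 fold change was -0.48 ± 0.13 (SE, n = 2 each; limma, adjusted p = 0.123), and the Hif1a-intact pair was closer together than the gap to the other group.

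Srebf2 (ENSMUSG00000022463, chromosome 15, 82147181 to 82205379, plus strand) read 28.1 and 30.2 TPM against 20.6 and 19.6 TPM, Hif1a-intact against Hif1a-null. Srebf1 (ENSMUSG00000020538, chromosome 11, 60199089 to 60222581, minus strand) read 98.3 and 133 TPM against 74.3 and 81.0 TPM. Both pairs were separated, and for Srebf1 the Hif1a-intact libraries differed from each other by more than the gap between the nearest libraries of the groups. The log2 fold changes were -0.52 ± 0.13 for Srebf2 and -0.56 ± 0.20 for Srebf1 (SE, n = 2 each; limma, adjusted p = 0.111 and 0.205). Srebf1 was the more abundant of the SREBP genes in every library, at 3.50 and 4.41 times Srebf2 in the Hif1a-intact and 3.61 and 4.13 times in the Hif1a-null libraries, so that ratio overlapped between the groups. Gene-level TPM does not separate the isoforms of Srebf1, and Rai1, which overlaps Srebf1 on the opposite strand, averaged 31.3 TPM; with the strand setting not given, reads in the overlap cannot be assigned with certainty.

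Stard4 (ENSMUSG00000024378, chromosome 18, 33199355 to 33213862, minus strand), a cytosolic sterol carrier and SREBP-2 target, read 13.0 and 16.2 TPM against 10.7 and 10.6 TPM. The groups did not overlap, and the log2 fold change was -0.41 ± 0.16 (SE, n = 2 each; limma, adjusted p = 0.234). The paralogue Insig2, which retains SREBPs in the same way and was named after its values were seen, read 32.1 and 35.5 TPM against 30.7 and 38.1 TPM, with full overlap (log2 fold change 0.02). The ratio of Insig1 to Insig2 was 0.870 and 0.981 in Hif1a-intact and 0.526 and 0.442 in Hif1a-null libraries.

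**Figure D2:**
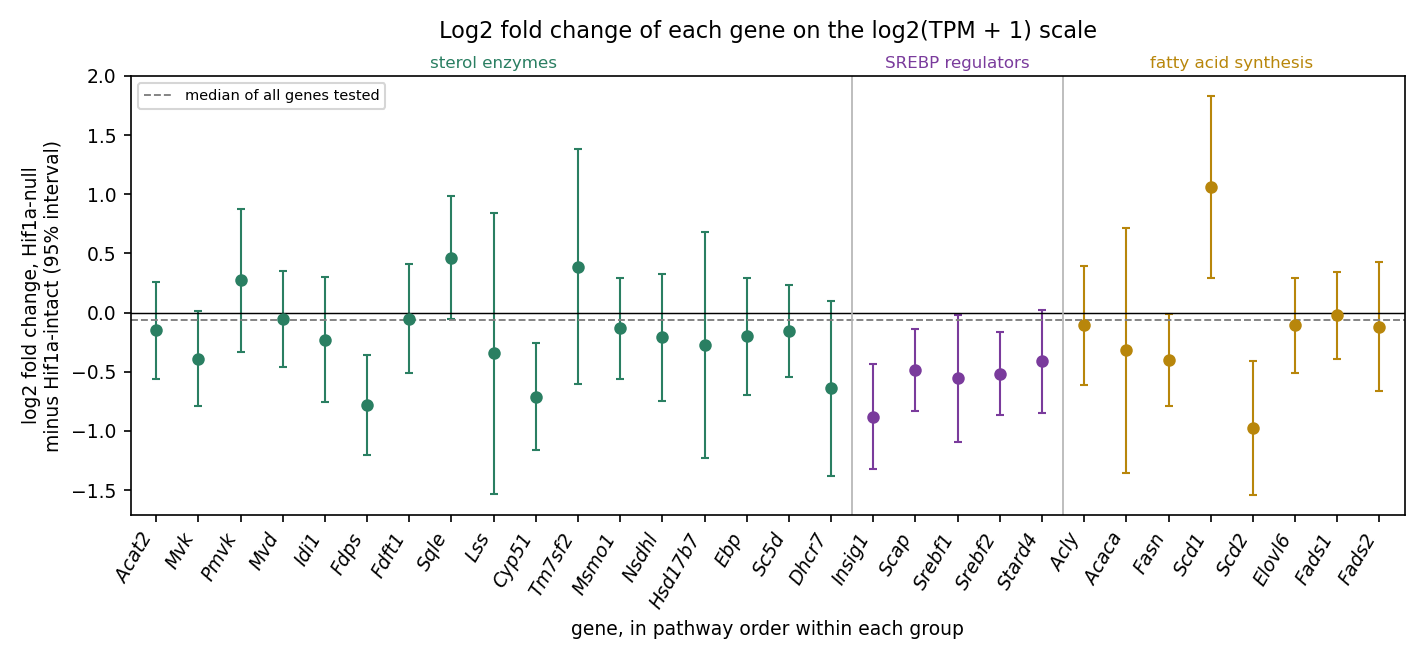
Log2 fold change of each gene (Hif1a-null minus Hif1a-intact, log2(TPM + 1) scale) with its unadjusted 95% limma interval, in pathway order; the dashed line is the median of all genes tested, -0.06. Points of the 5 regulators lie between -0.88 and -0.41, and the sterol enzymes spread from -0.78 to 0.46.

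In the sterol pathway none of the early mevalonate enzymes passed the test. Acat2, the cytosolic thiolase that joins acetyl-CoA units, read 18.01 and 15.5 TPM in Hif1a-intact and 14.1 and 15.9 TPM in Hif1a-null libraries. Mevalonate kinase (Mvk) read 3.63 and 4.46 against 2.82 and 2.86 TPM, separated but not past the threshold (log2 fold change -0.39 ± 0.15, SE, n = 2 each; limma, adjusted p = 0.224). Pmvk, which adds the second phosphate, overlapped between the groups at 7.55 and 5.24 against 8.78 and 6.96 TPM. Mvd, the decarboxylase, also overlapped, at 4.79 and 5.01 against 4.22 and 5.20 TPM. Idi1, the isomerase that makes dimethylallyl diphosphate, read 11.1 and 15.5 against 11.0 and 11.1 TPM. Its groups were separated only by the small margin between Hif1a-intact replicate 1 and the Hif1a-null libraries, and Hif1a-intact replicate 2 stood well above the other 3 libraries.

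Fdps (ENSMUSG00000059743, chromosome 3, 89093588 to 89101959, minus strand), which makes farnesyl diphosphate for sterols and for protein prenylation, had the lowest log2 fold change of the sterol enzymes. Its level was 71.2 and 86.1 TPM with Hif1a intact and 46.2 and 44.2 TPM without it. The Hif1a-null mean was 0.574 of the Hif1a-intact mean, and the log2 fold change was -0.78 ± 0.15 (SE, n = 2 each; limma, adjusted p = 0.0684). Like Insig1 it was called with protein-coding genes only (limma, adjusted p = 0.0451) and without Hif1a-intact replicate 1 (0.0458). The annotated Fdps pseudogenes present in the table read at most 0.125 TPM in any library.

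Among the squalene steps Sqle alone separated the groups, and none passed the test. Fdft1, squalene synthase, read 5.46 and 4.14 against 4.39 and 4.74 TPM and overlapped, with Ctsb on the opposite strand at a mean of 61.5 TPM. Sqle (ENSMUSG00000022351, chromosome 15, 59315077 to 59331192, plus strand), squalene epoxidase, which adds the oxygen that later closes the sterol rings, was the 1 sterol enzyme that lay higher in both Hif1a-null libraries. It read 3.55 and 4.87 TPM against 5.60 and 6.71 TPM, a log2 fold change of 0.46 ± 0.19 (SE, n = 2 each; limma, adjusted p = 0.255). Lss, lanosterol synthase, read 2.37 and 6.18 against 3.68 and 2.22 TPM, with the groups overlapping and the widest gap between the Hif1a-intact libraries.

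After lanosterol, Cyp51 (ENSMUSG00000001467, chromosome 5, 4081145 to 4104746, minus strand) and Dhcr7 (ENSMUSG00000058454, chromosome 7, 143823145 to 143848410, plus strand) lay lower without overlap. Cyp51 read 14.1 and 17.9 TPM against 9.62 and 9.07 TPM (log2 fold change -0.71 ± 0.17, SE, n = 2 each; limma, adjusted p = 0.0991). Dhcr7, the last reductase of the pathway, read 31.5 and 51.5 TPM against 26.4 and 24.6 TPM (-0.64 ± 0.27; limma, adjusted p = 0.263). The fold change of Dhcr7 rested mostly on Hif1a-intact replicate 2: without that library it was -0.29, and without Hif1a-intact replicate 1 it was -0.99. Akap9, on the strand opposite Cyp51, averaged 7.05 TPM.

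The other late enzymes overlapped or differed by little. Tm7sf2, a sterol reductase, read 13.7 and 9.34 against 20.8 and 11.0 TPM. Its transcripts overlap those of the neighbour Vps51, and the sum of both genes read 74.8 and 87.9 against 65.9 and 63.0 TPM, so its direction turned with the summing (log2 fold change 0.39 alone and -0.33 summed). Msmo1, the methylsterol oxidase, read 24.3 and 21.7 against 22.7 and 19.1 TPM, and Nsdhl, the sterol dehydrogenase that works with it, 6.01 and 4.13 against 4.18 and 4.21 TPM. Hsd17b7, the ketosteroid reductase of the same complex, read 6.997 and 14.4 against 8.56 and 7.86 TPM, with Hif1a-intact replicate 2 alone above the rest. Ebp, the sterol isomerase, was the most abundant sterol enzyme at 92.4 and 122 against 90.1 and 94.0 TPM. Sc5d, the desaturase before the last step, read 8.72 and 7.39 against 7.27 and 6.96 TPM, separated by a small margin (log2 fold change -0.15). Of the 17 sterol enzymes, 6 were lower without overlap (35.3%, near the 32.3% of all genes tested), 1 was higher (22.7% of all) and 10 overlapped, and their median log2 fold change was -0.20. Their adjusted p-values ran from 0.0684 to 0.897.

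Levels along the pathway were uneven on the TPM scale, which corrects for transcript length. Over the 4 libraries Ebp averaged 99.5 TPM and Fdps 61.9 TPM, while Mvk, Lss, Nsdhl, Fdft1, Mvd and Sqle averaged 3.44, 3.61, 4.63, 4.68, 4.80 and 5.18 TPM. The ratio of Ebp to Sqle was 26.0 and 24.9 in Hif1a-intact and 16.1 and 14.0 in Hif1a-null libraries.

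In fatty acid synthesis, the largest values and the largest differences were in different genes. Acly, which splits citrate to cytosolic acetyl-CoA for both pathways, was the most abundant of all 30 genes at 211 and 273 TPM in Hif1a-intact and 210.0 and 236 TPM in Hif1a-null libraries, with overlap. Acaca, acetyl-CoA carboxylase and the committed step, read 66.4 and 40.4 against 54.4 and 31.4 TPM, and its libraries differed more within groups than between them. Fasn (ENSMUSG00000025153, chromosome 11, 120805846 to 120824547, minus strand), the synthase, read 43.2 and 45.4 against 30.9 and 35.8 TPM without overlap (log2 fold change -0.40 ± 0.14, SE, n = 2 each; limma, adjusted p = 0.203).

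The stearoyl-CoA desaturases, which put the first double bond into saturated fatty acids, lay in opposite directions. Scd2 (ENSMUSG00000025203, chromosome 19, 44293674 to 44306864, plus strand), the main form in these cells, read 55.5 and 78.4 TPM with Hif1a intact and 32.5 and 33.7 TPM without it. Its log2 fold change of -0.98 ± 0.21 was the lowest of the 30 genes (SE, n = 2 each; limma, adjusted p = 0.0819). It was called without Hif1a-intact replicate 1 (limma, adjusted p = 0.0345).

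Scd1 (ENSMUSG00000037071, chromosome 19, 44394455 to 44407879, minus strand) read 0.759 and 0.101 TPM against 1.61 and 2.23 TPM (log2 fold change 1.06 ± 0.28, SE, n = 2 each; limma, adjusted p = 0.127). Being under 1 TPM in both Hif1a-intact libraries, it entered the test through the other group alone, and the filter fixed its direction. Scd1 made up 1.35% and 0.129% of the summed Scd1 and Scd2 TPM in the Hif1a-intact and 4.72% and 6.22% in the Hif1a-null libraries. The genes share a stretch of 95.5% identity over 623 bases, which a read-sharing estimate could split wrongly, and their sum read 56.2 and 78.5 against 34.1 and 35.9 TPM. Stromal and adipocyte markers were higher beside Scd1: 4 of 8 tested were called higher and 1 lower, their sum was 25.7 to 34.0 TPM in Hif1a-intact and 68.3 to 79.5 TPM in Hif1a-null libraries, and the adipocyte marker Plin1 was listed at 0 in all 4 libraries. Their part in the Scd1 values was not tested.

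Elongation and further desaturation did not separate the groups. Elovl6, the elongase of palmitate, read 6.40 and 5.33 against 5.57 and 5.12 TPM. Fads1 and Fads2, neighbouring desaturase genes for polyunsaturated fatty acids, read 9.505 and 10.7 against 9.60 and 10.2 TPM, and 14.1 and 10.03 against 11.2 and 10.6 TPM. All 3 genes overlapped between the groups, with 95% limma intervals for the log2 fold change of -0.51 to 0.30, -0.39 to 0.35 and -0.66 to 0.43. Of the 8 fatty acid genes, 2 were lower without overlap (25%, below the 32.3% of all genes tested), 1 was higher (Scd1, by the filter) and 5 overlapped, and their median log2 fold change was -0.11.

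**Figure D3:**
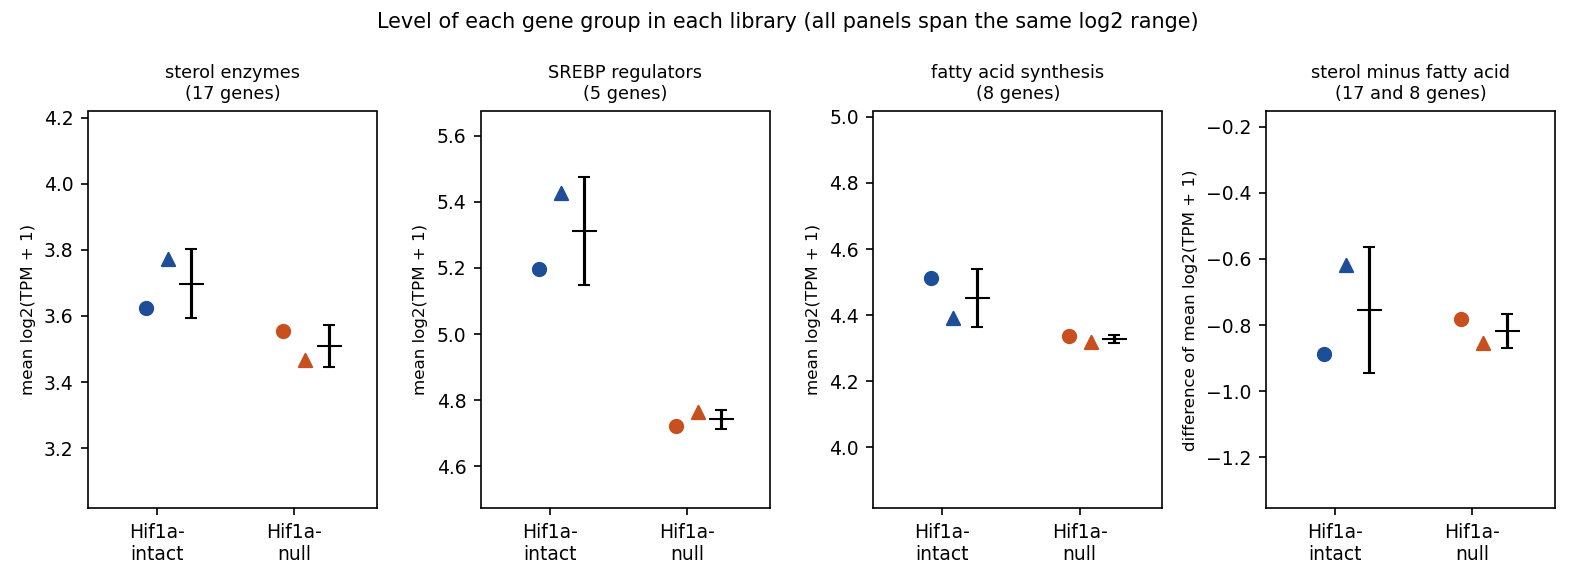
Mean log2(TPM + 1) of each gene group in each library, and the sterol mean minus the fatty acid mean in the right panel; circles are replicate 1, triangles replicate 2, and bars give the group mean ± SD (n = 2 each). The regulators are separated by more than the spread within the groups, and the right panel overlaps.

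The sterol and fatty acid branches were then compared within each library. The mean log2(TPM + 1) of the 17 sterol enzymes was 3.62 and 3.77 in Hif1a-intact and 3.56 and 3.47 in Hif1a-null libraries. The mean of the 8 fatty acid genes was 4.51 and 4.39 against 4.34 and 4.32. Each branch mean was lower in both Hif1a-null libraries, with differences of -0.19 and -0.12, where the mean of all genes tested differed by 0.02. Sterol minus fatty acid was -0.89 and -0.62 in Hif1a-intact and -0.78 and -0.85 in Hif1a-null libraries, so the Hif1a-null values lay inside the range of the Hif1a-intact pair. The difference between groups, -0.06, was smaller than the pooled SD of 0.14, with overlap between the groups. Without Scd1, whose direction the filter fixed, the values were -1.42 and -1.23 against -1.20 and -1.23, a difference of 0.11 with the opposite sign, a pooled SD of 0.0961 and again overlapping groups. The sign of the difference between the branches thus rested on 1 gene of low level. The 5 regulators had means of 5.20 and 5.43 against 4.72 and 4.76, a difference of -0.57.

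The Hif1a-intact libraries also differed from each other in these genes. Hif1a-intact replicate 2 read above replicate 1 in all 5 regulators, in 10 of the 17 sterol enzymes and in 4 of the 8 fatty acid genes. The median absolute log2 difference within the Hif1a-intact pair was 0.35 over the 30 genes and 0.26 over all genes tested, and within the Hif1a-null pair 0.10 and 0.12. The widest gaps within the Hif1a-intact pair were in Lss (1.09), Hsd17b7 (0.95), Acaca (0.70) and Dhcr7 (0.69).

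**Figure D4:**
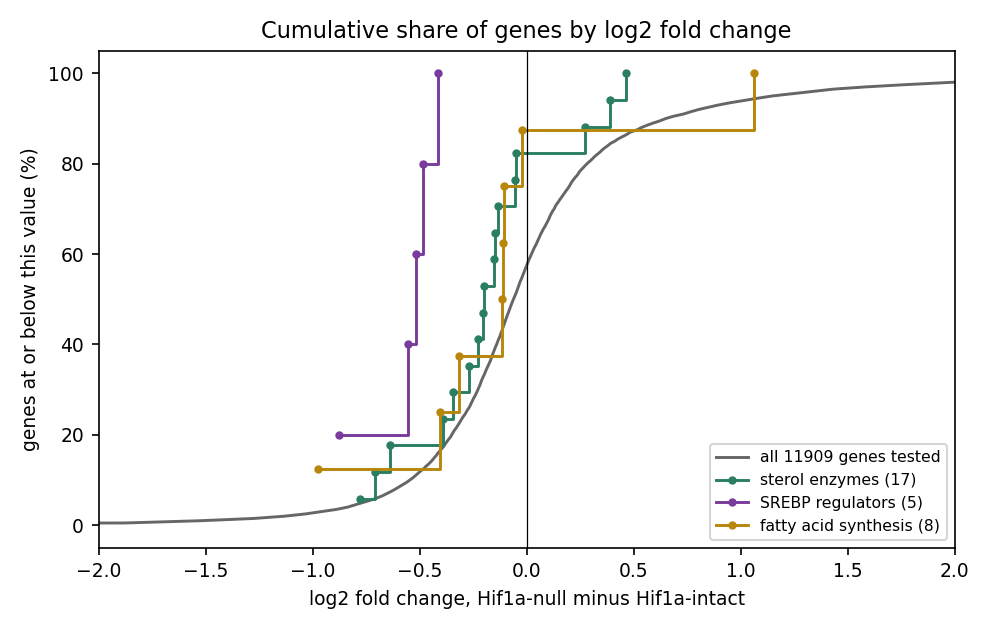
Cumulative share of genes (%) at or below each log2 fold change (Hif1a-null minus Hif1a-intact), for all 11909 genes tested (grey, shown from -2 to 2) and for the 3 gene groups, 1 point a gene. The regulator curve reaches 100% at -0.41, and the sterol and fatty acid curves cross their midpoints at -0.20 and -0.11, left of the grey curve's -0.06.

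Genes around the pathway were taken from 6 lists of 93 genes, of which 92 matched and 83 were tested. Of these, 1 was called higher and 0 lower, where 5.25% and 2.02% of all genes tested were. At an unadjusted limma p under 0.05, 4 were higher and 11 (13.3%) lower, where 11.4% and 11.9% of all genes tested were. The lower share was thus near that of all genes. The called gene was Vldlr, the very low density lipoprotein receptor, at 0.866 and 0.888 TPM in Hif1a-intact and 3.35 and 2.73 TPM in Hif1a-null libraries (log2 fold change 1.10 ± 0.14, SE, n = 2 each; limma, adjusted p = 0.0278). As with Scd1, the filter fixed its direction, and the call was lost under quantile normalization (0.0554) and without either Hif1a-intact library (0.0549 without replicate 1 and 0.0626 without replicate 2), while without either Hif1a-null library it was not tested. Of 8 tested genes of sterol uptake and lysosomal export, 6 were lower without overlap, where 32.3% of all genes tested were. Named after its values were seen, Npc1, the lysosomal cholesterol exporter, read 34.6 and 31.01 against 15.9 and 19.2 TPM (limma, adjusted p = 0.0583, and 0.0451 with protein-coding genes only).

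Among 13 other isoprenoid and sterol genes, 0 were called and 5 (38.5%) were lower without overlap, a share near that of all genes. Dhdds, a dolichol synthase subunit, read 54.7 and 70.4 against 46.0 and 46.2 TPM (limma, adjusted p = 0.254). The 11 genes of SREBP processing and turnover had a median log2 fold change of 0.02. Without overlap, 3 (27.3%) were lower and 3 higher, where 32.3% and 22.7% of all genes tested were. Ubxn8, which helps draw proteins from the endoplasmic reticulum for degradation, read 12.4 and 11.6 against 9.75 and 9.82 TPM (limma, adjusted p = 0.306), and Pgrmc1, a haem-binding membrane protein, 27.8 and 21.0 against 30.4 and 32.5 TPM (limma, adjusted p = 0.331).

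Of 12 tested genes of LXR signalling, sterol efflux and esterification 0 were called. In this list 6 (50%) were lower and 2 higher without overlap, where 32.3% and 22.7% of all genes tested were. Cyp27a1, the sterol hydroxylase that starts bile acid synthesis outside the classical route, read 7.48 and 5.40 against 2.49 and 2.94 TPM (limma, adjusted p = 0.0667), and the efflux transporter Abcg1 26.8 and 27.6 against 19.1 and 19.3 TPM (limma, adjusted p = 0.119). Macrophage genes are known to include both, and Adgre1 and Cd68 were lower in the same libraries (log2 fold changes -1.53 and -1.06; limma, adjusted p = 0.0211 and 0.0416); of the 12 macrophage, monocyte and dendritic markers, however, 9 had a log2 fold change above 0, 4 were called higher and only these 2 lower, and the sum was 160 in both Hif1a-intact and 190 to 193 TPM in Hif1a-null libraries. Their part was not tested.

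The other 21 tested genes of fatty acid synthesis and activation had 0 calls, with 10 (47.6%) lower and 8 higher without overlap, where 32.3% and 22.7% of all genes were. Acsl3, which activates fatty acids on lipid droplets, read 22.8 and 21.6 against 11.2 and 13.0 TPM (log2 fold change -0.83 ± 0.14, SE, n = 2 each; limma, adjusted p = 0.0508). Elovl5, an elongase of polyunsaturated fatty acids, read 108 and 97.4 against 70.4 and 72.3 TPM (limma, adjusted p = 0.118). Fatty acid oxidation, the opposing route, had 0 of 18 tested genes called and a median log2 fold change of 0.05. Without overlap, 4 (22.2%) were lower and 2 higher, again beside 32.3% and 22.7% of all genes. Hadhb, the thiolase subunit of the trifunctional protein, read 49.3 and 52.2 against 30.4 and 32.5 TPM (limma, adjusted p = 0.0633), while its partner subunit Hadha, named after its values were seen, read 189 and 180.5 against 213 and 255 TPM (limma, adjusted p = 0.288). Etfb, an electron transfer subunit, read 224 and 187 against 156 and 137 TPM (limma, adjusted p = 0.195).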

How the data were processed

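RNA sequencing of CD117-selected bone marrow cells gave 4 libraries, 2 for each genotype label. The authors deposited 1 TPM value per Ensembl gene and library; kallisto and genome build mm10 are named, per the submitters' processing notes, and for the version, transcript set and strand setting the sources used here give nothing. The unit was read from the values, since the columns sum to 955562 to 963135. TPM keeps no counts, so depth is unknown, no counting interval is given; values are shares, so abundant transcripts move the rest.

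Symbols and positions came from GENCODE vM21 (GRCm38) by Ensembl identifier, for 27475 of 28987 genes. Testing used limma 3.58.1 in R 4.3.3 (two-sided, trend and robust off) on log2(TPM + 1), which understates changes of low genes, for genes reaching 1 TPM in 2 or more libraries. It was checked on simulated data, 2 against 2 libraries, with 50 genes changed at each size. The test called 2% of the genes given a log2 change of 1. It called 68% of those given a change of 2 and 92% of those given 3. The simulated data gave 136 calls in all, beside 866 in the deposited values, so the adjusted threshold was stricter there. The shares found in the simulation may therefore differ from those in these data. With 2 against 2 libraries, a listed gene without a call is still not shown to be unchanged. Branch levels were compared as descriptions, since 2 against 2 libraries cannot give a two-sided exact permutation p below 0.333. The listed genes and gene lists were chosen with earlier results of these data known. Named from the other lists were up to 3 called genes of smallest p, or 2 where none was called. Some genes of these lists are not reported here. A blastn 2.17.0 search looked for near-identical copies (at least 95% identity over 50% of the shorter transcript and 100 bases). Promoters are from RefSeq (GRCm38.p6). Alternatives were other pseudocounts, filters, variance models, rescalings, copies summed and each library left out.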

Additional observations from a re-analysis of the deposited data

How the results depend on the processing

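Of 16 alternatives, 14 left 0 of the 30 genes called. The others were protein-coding genes only, where 2 were called lower, and leaving out Hif1a-intact replicate 1, which puts a single library in that group. The share of all genes called in each of these settings is not given here, so their calls are not read as a result about the 30. The numbers of all genes called were 231 higher and 112 lower with a mean of at least 5 TPM required (24 of the 30 genes then tested), 138 lower with no filter, and 0 to 731 higher and 0 to 288 lower with 1 library left out. In the other pathway lists 0 genes were called higher with a mean of at least 5 TPM and under quantile normalization, 1 was called lower with a variance trend and under quantile normalization, and 3 with protein-coding genes only; with 1 library left out 0 were higher and 0 to 2 lower. With 1 library left out the medians of log2 fold change ran from -0.57 to -0.47 for the regulators, -0.213 to -0.0798 for the sterol enzymes and -0.284 to -0.0481 for the fatty acid genes, and sterol minus fatty acid from -0.20 to 0.07. With the 100 most abundant genes left out the sterol and fatty acid medians were -0.106 and -0.0280. The number of the 30 genes with a log2 fold change below 0, 26 in the main fit, also moved. It was 23 in that setting and under median-ratio rescaling, 24 under quantile normalization and 28 with copies summed. With 1 library left out it ran from 21 to 25. Sterol minus fatty acid was -0.22 at a pseudocount of 0.1, 0.14 with copies summed (fatty acid median -0.25, where Scd1 and Scd2 each take the sum) and, chosen after seeing the data, 0.11 without Scd1; subtracting the median of all genes, also chosen then, left the fatty acid median at -0.0511. The causes were not tested. With 1 library left out of a group, the lone sample is assumed to vary like the other group. No paired analysis was possible because the labels give the libraries no shared replicate numbers. Depth is unknown, so it cannot be said which differences it limits.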
